A study of Rattus norvegicus with 45 samples.

Results

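Heme oxygenase and the antioxidant response genes are a group of stress-inducible genes that remove heme, make glutathione, keep thioredoxin reduced and detoxify quinones and aldehydes. The members named for the group were Hmox1, Nfe2l2, Akr1b8, Nqo1, Gclc, Gclm, Txnrd1, Srxn1 and Prdx1, and their values were taken from every probe set whose platform gene symbol was one of these names. Of these 9 genes, 8 had a probe set with that symbol alone, which gave 12 probe sets out of 31042 on the array; 11684 genes were tested in all. The single probe set of Prdx1, a peroxiredoxin that removes hydrogen peroxide, also carries a second gene symbol, so no value is given for Prdx1. Of the 12 probe sets, 11 passed the filter on low signal, and the dimmest of the 3 probe sets of Srxn1 did not. Each gene is represented below by its brightest probe set, and the others are given where their call differs.

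RNA came from female SD rats, from the gastrocnemius (largely fast fibres) and the soleus (largely slow fibres), and was measured on 45 one-colour Affymetrix arrays. Gastrocnemius was sampled in treadmill-exercised rats given vehicle (n = 4) or cerivastatin, a statin that inhibits cholesterol synthesis, at 0.1 (n = 4), 0.5 (n = 3) or 1.0 mg/kg/day (n = 4). It was sampled likewise in unexercised rats given vehicle (n = 4) or 0.1 (n = 4), 0.5 (n = 4) or 1.0 mg/kg/day (n = 3). Soleus was sampled in exercised rats at 1.0 mg/kg/day (n = 4) or vehicle (n = 4) and in unexercised rats at 1.0 mg/kg/day (n = 3) or vehicle (n = 4). Dosing was daily for 14 days, the vehicle was a methylcellulose solution, and exercised rats ran 20 min a day at 20 m/min on 5 days of each week. No genetic change was stated for any group, and ages were not given in the labels. The design compares doses, exercise states and the pair of muscles.

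In the textbook account, the transcription factor NRF2, the product of Nfe2l2, is held in the cytoplasm by KEAP1 and degraded until oxidants or electrophiles modify KEAP1. Freed NRF2 enters the nucleus and binds antioxidant response elements in the promoters of its targets, with a small MAF protein as partner. Hmox1 is also repressed by BACH1, which heme removes, and it is strongly expressed by macrophages that take up red cell or muscle debris.

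The antioxidant response element has the core letters TGACNNNGC, and the related AP-1 site is TGACTCA. Both were searched on both strands of the 300 bases from 250 before to 50 after each gene's start, in RefSeq promoters of the rat build GRCr8. The 8 members that matched this table had 9 entries, and Hmox1 was named only. TGACNNNGC occurred in 4 of these 9 entries, those of Gclm, Nfe2l2, Prdx1 and 1 of the Txnrd1 entries, and in 12.1% of all 33469 promoters. TGACTCA occurred in 2 of 9 entries, those of Srxn1 and Prdx1, and in 4.63% of all promoters. One Prdx1 match holds both motifs, since TGACTCA followed by GC also has the first pattern. The windows below show the matches in capitals for 3 members with measured values, 5′ to 3′ on the strand of the gene; in all 3 the motif lies on the opposite strand, so the capitals are its reverse complement.
Gclm, chr2:213031937-213031997 (plus strand): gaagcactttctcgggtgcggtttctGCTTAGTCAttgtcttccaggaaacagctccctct
Txnrd1, chr7:22755948-22756008 (minus strand): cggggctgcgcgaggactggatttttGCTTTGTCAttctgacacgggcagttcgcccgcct
Srxn1, chr3:161064724-161064782 (plus strand): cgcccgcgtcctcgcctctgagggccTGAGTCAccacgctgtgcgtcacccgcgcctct
Srxn1 has a second TGACTCA match, at position -5 from its start, which is not shown. These are matches of letters only, and binding at them was not measured. Bases outside the searched stretch were not examined, so a member without a match may hold one there.

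Values below are MAS5 signal, a linear brightness as deposited. Fold changes are on the log2(signal + 12.4) scale, which understates the change of dim genes. The ± after a fold change is its standard error, and p is limma's, adjusted by the Benjamini-Hochberg method over all 21729 probe sets tested, with a threshold of 0.05. Before the results, 2 gastrocnemius arrays stood apart from their groups. Replicate 3 of the unexercised 1.0 mg/kg/day group lay within or close to the vehicle range for the members. Replicate 3 of the unexercised 0.1 mg/kg/day group had the lowest actin 5′ to 3′ ratio of all arrays, a sign of RNA integrity, at 0.116 in a range of 0.116 to 0.707. In exercised gastrocnemius this ratio was 0.35 to 0.469 in vehicle and 0.248 to 0.334 at 0.1 mg/kg/day. It was 0.397 to 0.445 at 0.5 mg/kg/day and 0.437 to 0.578 at 1.0 mg/kg/day. The part of RNA integrity in the members' levels was not tested. These samples are bulk tissue, so fewer cells of a type and less RNA per cell cannot be told apart. The tissue labels were checked against fibre markers: the summed signal of 8 slow-fibre genes was 289541 to 531846 on the soleus arrays, while in gastrocnemius it reached from 3304 to 379729, so the gastrocnemius pieces differed widely in slow-fibre RNA.

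In exercised gastrocnemius at 1.0 mg/kg/day, heme oxygenase, the aldo-keto reductase Akr1b8, the NRF2 gene itself and the catalytic glutathione synthesis gene Gclc were higher than in vehicle on every array. Of the 8 members, 5 were higher and 0 lower by limma, in a comparison in which 43.4% of all probe sets were called, 23.0% higher and 20.4% lower. The median fold change of the 8 members was 1.29 on the log2 scale, and that of all probe sets was -0.01. In 4 of the 8 members every 1.0 mg/kg/day array lay above every vehicle array, as was so for 22.2% of all probe sets.

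Hmox1, the enzyme that opens heme to biliverdin, iron and carbon monoxide, had signals of 2842, 6033, 2206 and 4492 in exercised gastrocnemius at 1.0 mg/kg/day, against 171.9, 204.3, 107.2 and 259.2 in exercised vehicle gastrocnemius. The lowest treated array was several times brighter than the highest vehicle array. The log2 fold change was 4.26 ± 0.57 (n = 4 each, limma adjusted p = 9.88e-06). Akr1b8, an aldo-keto reductase that reduces aldehydes, had signals of 5580, 5204, 919.5 and 4056 at 1.0 mg/kg/day, against 372.1, 96.1, 145.2 and 187.3 in vehicle. Treated replicate 3 was much dimmer than the others but still above every vehicle array, and the log2 fold change was 4.09 ± 0.83 (limma adjusted p = 0.000362). Both genes kept an adjusted p below the threshold in all 17 alternatives tried, with log2 fold changes of 3.92 to 4.49 for Hmox1 and 3.75 to 4.69 for Akr1b8.

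**Figure D1:**
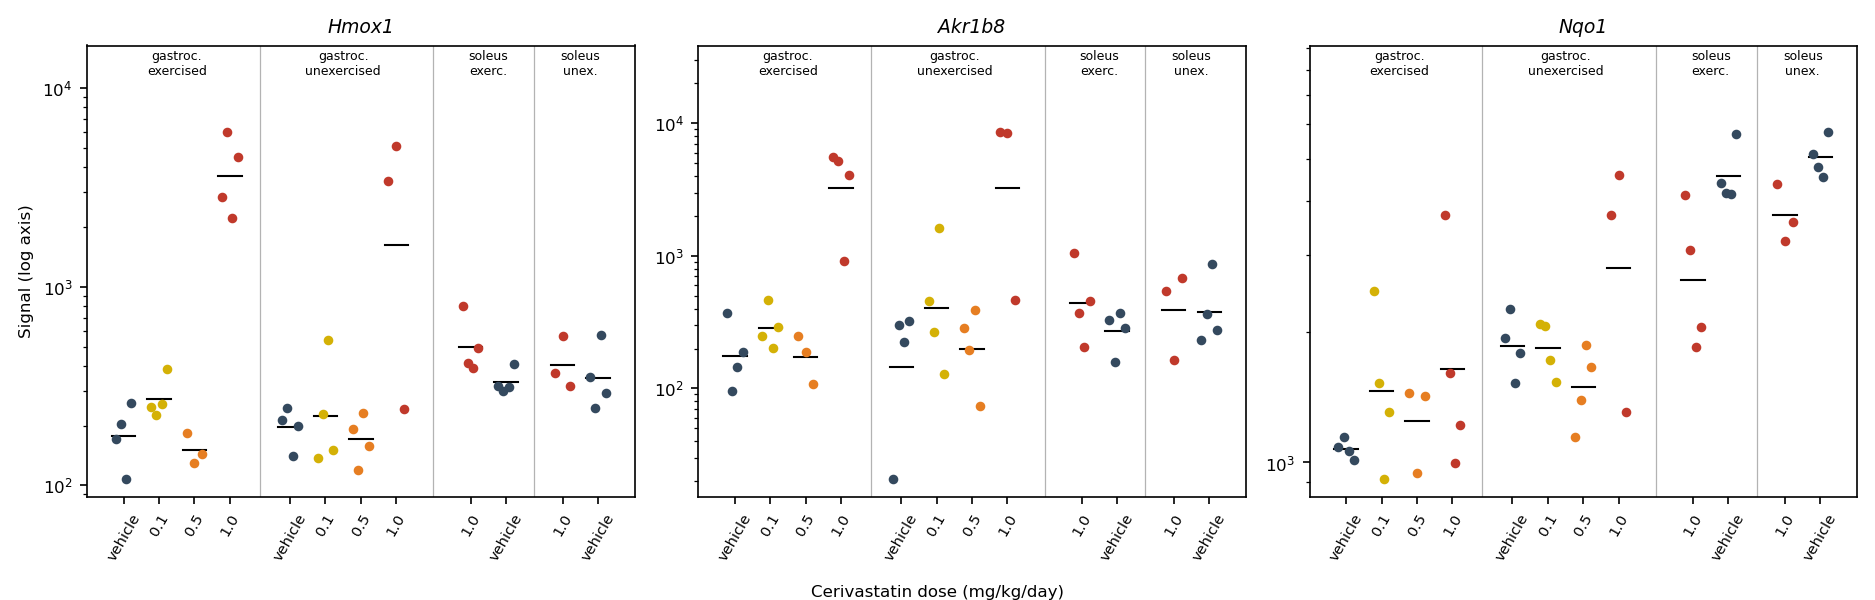
MAS5 signal of Hmox1, Akr1b8 and Nqo1 on a log axis, 1 point per array and a bar at the geometric mean of each group, by muscle, exercise and cerivastatin dose in mg/kg/day. All 4 exercised gastrocnemius arrays at 1.0 mg/kg/day lie above the vehicle arrays for Hmox1 and Akr1b8, 1 of the 3 unexercised ones lies near vehicle, and Nqo1 is brightest in the soleus.

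Nfe2l2, which encodes NRF2, had signals of 3134, 4407, 3418 and 4541 at 1.0 mg/kg/day with exercise, against 1437, 2136, 1683 and 1842 in vehicle. The groups did not overlap, and the log2 fold change was 1.12 ± 0.23 (limma adjusted p = 0.000365). Gclc, the catalytic subunit of glutamate-cysteine ligase, which makes the first step of glutathione synthesis, had 539.9, 919.0, 529.3 and 897.3 against 312.9, 205.1, 227.8 and 238.0. These groups did not overlap either, and the log2 fold change was 1.47 ± 0.31 (limma adjusted p = 0.000538). The other Gclc probe set gave 1.70 ± 0.50 (limma adjusted p = 0.00772). Gclm, the modifier subunit of the same ligase, had 1060, 634.6, 715.7 and 653.1 against 631.1, 464.1, 598.5 and 694.0, and was above every vehicle array on replicates 1 and 3 only. Its log2 difference was 0.34 ± 0.24 (95% interval -0.15 to 0.82, limma adjusted p = 0.259).

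Of the thioredoxin genes, Srxn1 (sulfiredoxin, which repairs overoxidised peroxiredoxins) had 1301, 846.8, 629.5 and 844.7 at 1.0 mg/kg/day, against 120.7, 926.5, 300.7 and 255.3 in vehicle. One vehicle array was brighter than all treated arrays but the first. The log2 fold change of 1.47 ± 0.54 passed (limma adjusted p = 0.0297), but this call held in only 9 of 17 alternatives, with adjusted p from 0.00437 to 0.136. It was lost, for example, under quantile normalization (adjusted p = 0.0584) and without vehicle replicate 1 (adjusted p = 0.136), and the other tested Srxn1 probe set gave 0.73 ± 0.45 (adjusted p = 0.204). Txnrd1, the cytosolic thioredoxin reductase, had 2947, 2423, 1519 and 2037 against 1204, 1496, 1526 and 1440. The third treated array fell within the vehicle range, and the log2 difference of 0.62 ± 0.26 did not pass (limma adjusted p = 0.0552). Its other probe set did pass, at 1.24 ± 0.35 (adjusted p = 0.00568), with every treated array above vehicle, so the probe sets of Txnrd1 disagree on the call.

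Nqo1, the quinone reductase often used as a readout of NRF2, was not called either. It had 3700, 1608, 998.1 and 1221 at 1.0 mg/kg/day with exercise, against 1084, 1147, 1063 and 1011 in vehicle. The first treated array stood far above the rest, the third was below every vehicle array, and the log2 difference was 0.61 ± 0.34 (95% interval -0.10 to 1.31, limma adjusted p = 0.157).

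The 4 exercised arrays at 1.0 mg/kg/day did not rank alike across members. Replicates 2 and 4 were the brightest for Hmox1, Nfe2l2 and Gclc, whereas replicate 1 was the brightest for Akr1b8, Nqo1, Gclm, Txnrd1 and Srxn1. The summed signal of 15 macrophage markers was 82072, 155997, 118265 and 185196 in replicates 1 to 4, so that it too was highest in 2 and 4 and lowest in 1. The 8 slow-fibre markers summed to 189209, 4692, 154601 and 11756 on the same arrays, so replicates 2 and 4 were also the lowest in slow-fibre RNA. The part of these markers in the members' levels was not tested.

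**Figure D2:**
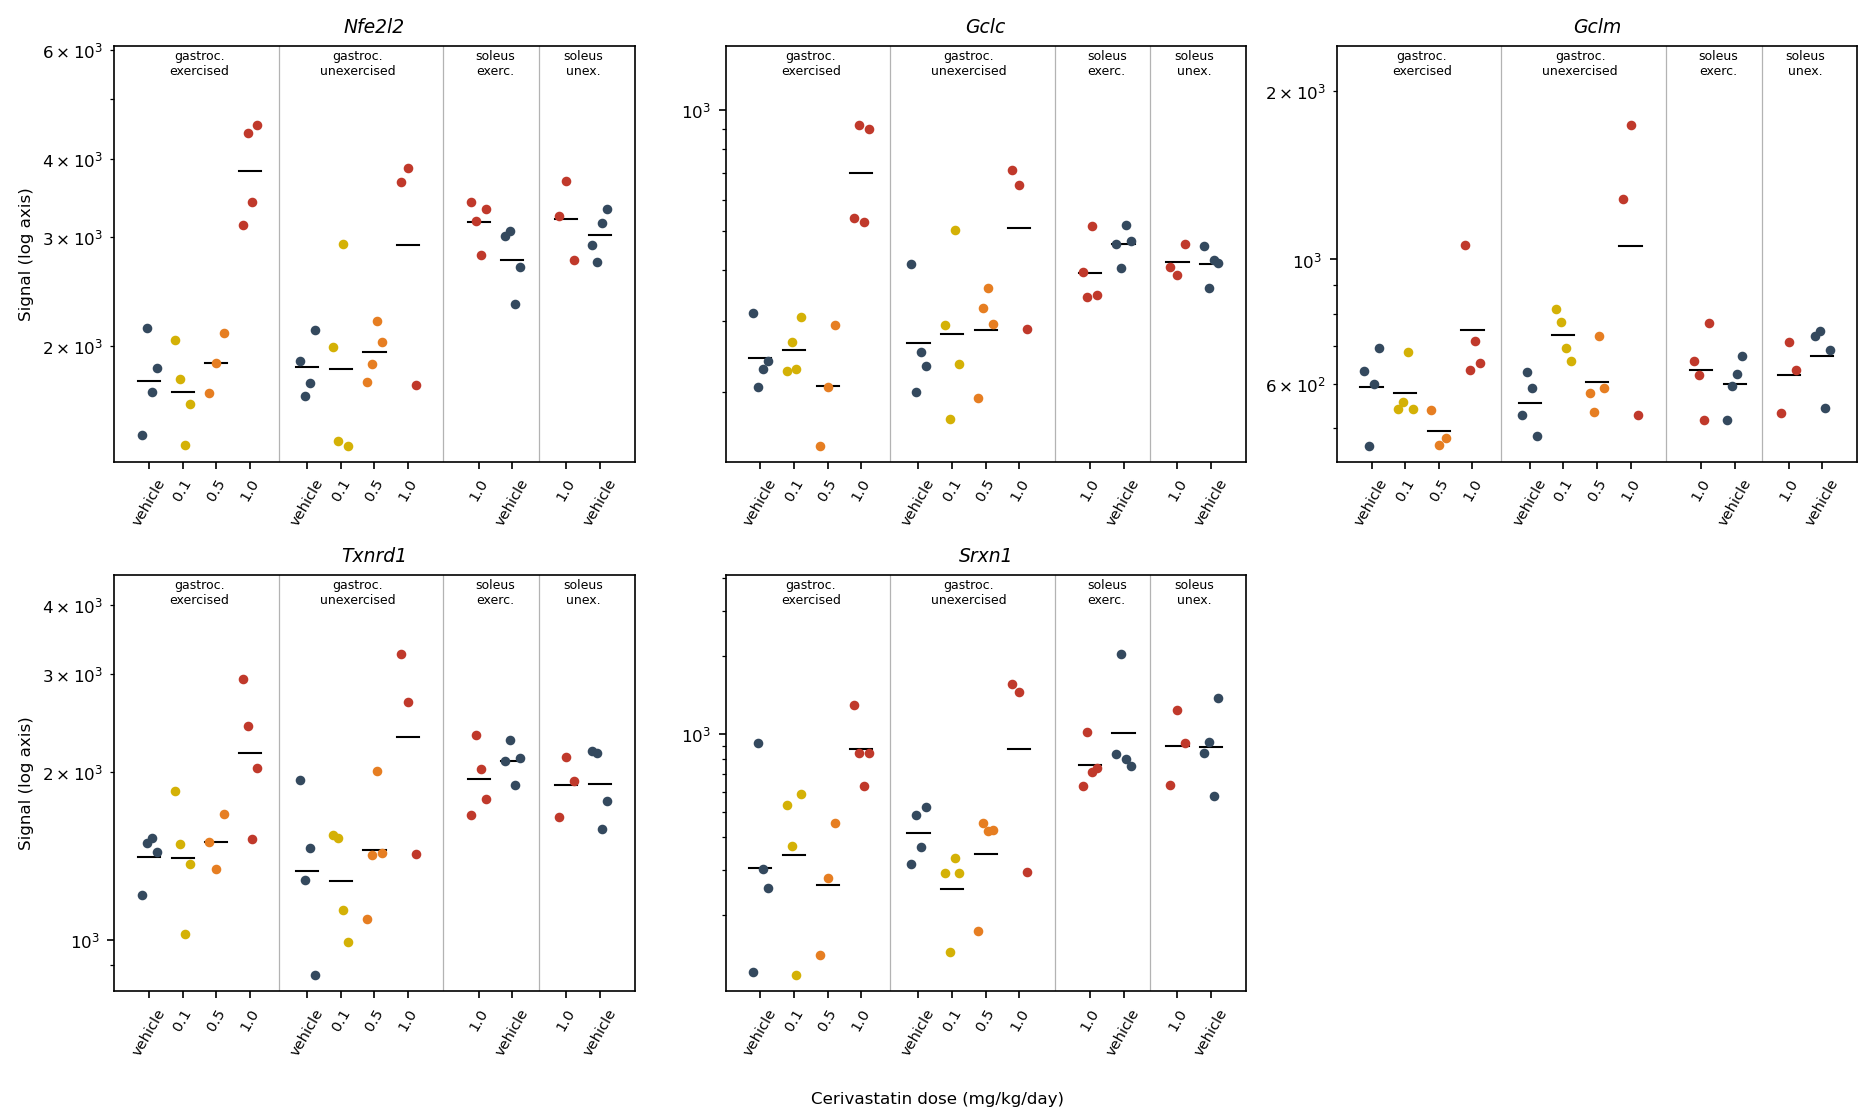
MAS5 signal of Nfe2l2, Gclc, Gclm, Txnrd1 and Srxn1 on a log axis, 1 point per array and a bar at the geometric mean of each group, laid out by muscle, exercise and dose in mg/kg/day. Nfe2l2 and Gclc at 1.0 mg/kg/day with exercise lie wholly above vehicle, Gclm, Txnrd1 and Srxn1 overlap it, and replicate 3 of the unexercised 1.0 mg/kg/day group lies near or below vehicle level in each panel.

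In unexercised gastrocnemius at 1.0 mg/kg/day, Hmox1, Akr1b8 and Gclm were higher, and 0 members were lower, against 9.5% of all probe sets called. The median of the members was 0.92 and that of all probe sets 0.03 on the log2 scale. Akr1b8 alone, 1 of the 8, had every treated array above every vehicle array, as did 7.48% of all probe sets. Hmox1 had signals of 3411, 5088 and 242.2 at 1.0 mg/kg/day, against 214.4, 246.4, 140.6 and 199.5 in vehicle. The first pair of treated arrays was as bright as the exercised ones, and the third lay inside the vehicle range. The log2 fold change was 2.98 ± 0.61 (n = 3 against 4, limma adjusted p = 0.0115). Akr1b8 had 8630, 8368 and 467.7 against 20.6, 298.4, 222.6 and 321.8, a log2 fold change of 4.28 ± 0.90 (limma adjusted p = 0.0118). The vehicle array at 20.6 lay far below the others and lowered the vehicle mean. Over 16 alternatives the Akr1b8 fold change ranged from 3.49 to 5.66, and it passed in 13. Gclm had 1281, 1738 and 527.9 against 528.3, 630.6, 589.8 and 483.0, a log2 fold change of 0.91 ± 0.25 (limma adjusted p = 0.0291). The Gclm call held in only 9 of 16 alternatives and was lost, for example, under median centring (adjusted p = 0.0563) and without vehicle replicate 1 (0.0623), 3 (0.0546) or 4 (0.0555).

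These calls rested on 2 of the 3 treated arrays. Nqo1 had 3709, 4571 and 1304 at 1.0 mg/kg/day, against 1935, 2260, 1521 and 1785 in vehicle, so the third treated array was below every vehicle array. Srxn1 had 1562, 1460 and 293.3 against 314.9, 486.9, 365.0 and 523.3, again with the third array lowest. With all 3 arrays neither passed (0.59 ± 0.37, limma adjusted p = 0.303 for Nqo1; 1.06 ± 0.59, adjusted p = 0.237 for Srxn1). Without replicate 3, all 8 members were called higher, among 5823 probe sets, with log2 fold changes from 1.02 for Nfe2l2 (adjusted p = 0.00216) to 5.66 for Akr1b8 (adjusted p = 4.38e-05). Hmox1 was then at 4.32, Gclm at 1.41, Gclc at 1.33, Nqo1 at 1.14, Txnrd1 at 1.14 and Srxn1 at 1.84. Without replicate 1 or without replicate 2 no member passed, with 5 and 2 probe sets called in all. A fit on the 7 arrays of these groups alone called 0 probe sets.

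The same array stood apart in its cell type markers. The 15 macrophage markers summed to 99637 and 107686 in replicates 1 and 2 and to 12321 in replicate 3, against 5017 to 17586 in unexercised vehicle. The 9 fast-fibre markers summed to 176582, 128421 and 440238, against 493167 to 528251 in vehicle. By limma, 14 of 15 tested macrophage markers were higher at 1.0 mg/kg/day without exercise, and 15 of 15 with exercise, where their sums were 82072 to 185196 against 6572 to 8350 in vehicle. With exercise 8 of 9 fast-fibre markers and 0 of 8 slow-fibre markers were lower. Of the other tested markers 4 of 6 fibroblast, 0 of 5 endothelial and 0 of 3 erythroid ones were higher. The 2 tested neutrophil markers, S100a8 and S100a9, were higher, with sums of 778 to 10963 against 25 to 159 in vehicle. They were dim in vehicle and may have passed the filter through the 1.0 mg/kg/day arrays, so their count says little. The other listed neutrophil and erythroid markers were not tested. No marker was at 0 in any group: the dimmest macrophage marker, Adgre1, was at 760 or above in the exercised 1.0 mg/kg/day arrays. The part of these cells in the members' rise was not tested.

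**Figure D3:**
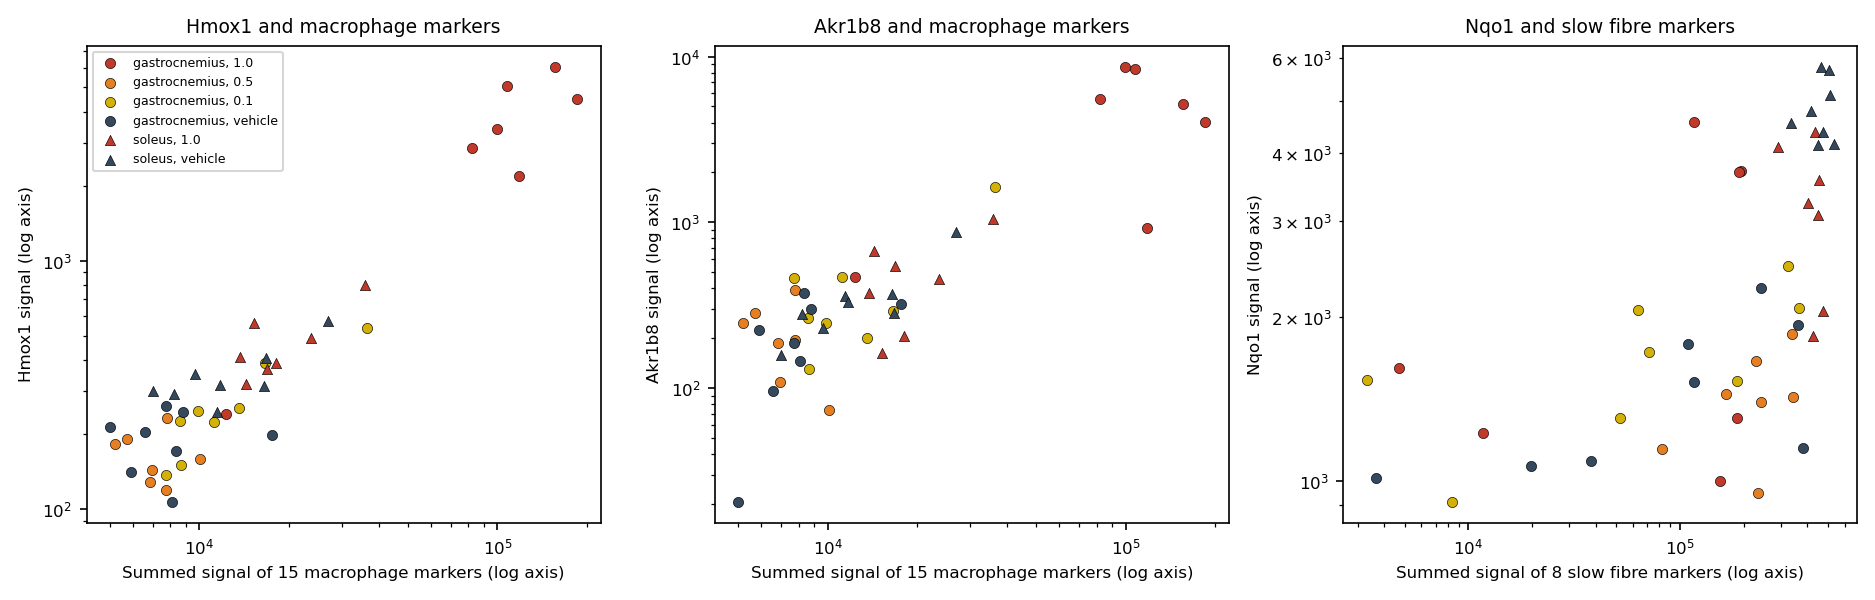
Signal of Hmox1, Akr1b8 and Nqo1 per array against the summed signal of 15 macrophage markers (left, middle) or 8 slow-fibre markers (right), log axes, circles for gastrocnemius and triangles for soleus, coloured by dose in mg/kg/day. Hmox1 runs along the macrophage sum over all arrays, Akr1b8 does so with more scatter, and the vehicle soleus arrays are high in both Nqo1 and slow-fibre markers.

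Across the 45 arrays, the 5 genes whose log2 values were most like Hmox1 were Lgmn (Pearson r = 0.972), Pcna (0.968), Arpc3 (0.965), Clec10a (0.957) and Lcp1 (0.955). Lgmn encodes a lysosomal protease, Pcna a DNA replication clamp, Arpc3 an actin nucleation subunit, Clec10a a macrophage lectin and Lcp1 a leukocyte actin bundler. For Akr1b8 they were Insig1 (0.896), Cd14 (0.895), Tubb6 (0.892), Enpp3 (0.891) and Fcgr2b (0.891). Insig1 is a sterol-regulated gene of the pathway that statins block, and Cd14 and Fcgr2b are myeloid surface receptors that also stand in the macrophage marker list. For Nqo1 they were Gsta1 (0.838), Atosb (0.837), Pir (0.824), Slc20a2 (0.823) and Ift81 (0.803), and Gsta1, a glutathione transferase, is itself a known NRF2 target. Within the 30 gastrocnemius arrays the values with Nqo1 were 0.634 for Gsta1, 0.617 for Atosb, 0.649 for Pir, 0.768 for Slc20a2 and 0.596 for Ift81. Between members, r over the 45 arrays was 0.86 for Akr1b8 with Hmox1, 0.833 for Gclc with Nfe2l2 and 0.804 for Nfe2l2 with Srxn1, but 0.261 for Hmox1 with Nqo1 and 0.254 for Akr1b8 with Nqo1. These are descriptions, since the arrays share groups, scaling and cell composition.

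At the lower doses no member passed the test. At 0.5 mg/kg/day 0 of 8 members were called with exercise and 0 of 8 without, and the background was 0.0% in both, with 626 and 593 probe sets at an unadjusted p under 0.05. At 0.1 mg/kg/day the counts were also 0 of 8 and 0 of 8, on a background of 0.0%, with 957 and 885 probe sets at an unadjusted p under 0.05. The other Srxn1 probe set was at -1.36 ± 0.49 at 0.5 mg/kg/day with exercise (unadjusted p = 0.0101, limma adjusted p = 1), against -0.22 for the brighter one. Hmox1 had 182.6, 129.0 and 143.7 at 0.5 mg/kg/day with exercise, which overlapped its vehicle range, and 192.3, 119.8, 232.4 and 158.7 without exercise. At 0.1 mg/kg/day it had 248.6, 225.1, 256.0 and 387.6 with exercise, and 137.5, 227.6, 537.6 and 150.7 without. The bright unexercised array at 0.1 mg/kg/day is replicate 3, the one of lowest actin ratio, which also had 1635 for Akr1b8 (129.4 to 459.2 on the others) and a macrophage sum of 36453, the highest outside the 1.0 mg/kg/day gastrocnemius group. Its endothelial sum of 28168 (3930 to 6478 on the others of its group), erythroid sum of 23446 (7386 to 15678) and fast-fibre sum of 186089 (385896 to 560808) stood apart as well, and their part was not tested. With it the log2 differences from vehicle were 0.19 for Hmox1 and 1.31 for Akr1b8, and without it -0.21 and 0.65, none of them called. Over 17 alternatives the Akr1b8 difference ranged from 0.53 to 1.83, and its vehicle group held the dim array at 20.6. Gclm at 0.1 mg/kg/day without exercise was above vehicle on all arrays, the only member so, at 0.39 on the log2 scale (0.874% of all probe sets lay wholly above; limma adjusted p = 0.89).

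Set against 0.5 mg/kg/day, the 1.0 mg/kg/day dose gave the same number of members called as against vehicle. With exercise 5 members were higher and 0 lower on a background of 39.7%, and 6 of 8 lay wholly above the 0.5 mg/kg/day arrays, as did 25.8% of all probe sets. The log2 fold changes were 4.48 ± 0.61 for Hmox1, 4.14 ± 0.90 for Akr1b8, 1.69 ± 0.34 for Gclc, 1.69 ± 0.59 for Srxn1 and 1.02 ± 0.25 for Nfe2l2. Txnrd1 was at 0.53 (adjusted p = 0.138) by its brighter probe set and at 1.13 (adjusted p = 0.0186) by the other. Without exercise Hmox1 (3.16 ± 0.61), Akr1b8 (3.92 ± 0.90) and Gclm (0.80 ± 0.25) were higher, 3 of 8 on a background of 9.33%, and these too rested on replicates 1 and 2. The Gclm call held in only 5 of 16 alternatives, and was lost with the replicate block (adjusted p = 0.0696), with no filter (0.0623), under quantile normalization (0.0732) or median centring (0.09), and without any one array at 0.5 mg/kg/day (0.0569 to 0.101). These comparisons share the 1.0 mg/kg/day arrays with those against vehicle. Between 0.5 and 1.0 mg/kg/day no dose was sampled, so a threshold within that range cannot be placed.

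**Figure D4:**
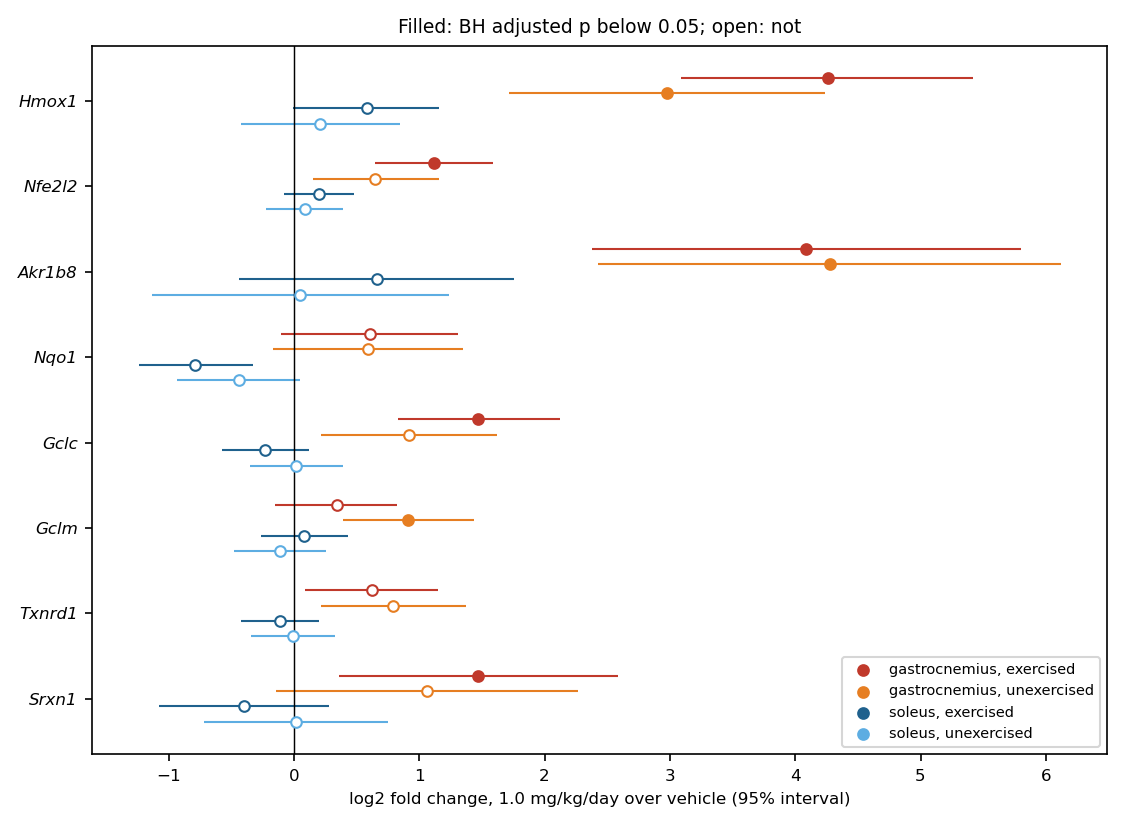
Log2 fold change of each member at 1.0 mg/kg/day over vehicle (points) with its 95% interval (lines), in gastrocnemius and soleus with and without exercise. Filled points passed the adjusted threshold: 5 in exercised and 3 in unexercised gastrocnemius, and 0 in either soleus comparison, where Nqo1 lies at -0.79 and -0.44.

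No member passed the tests of exercise. In vehicle gastrocnemius 0 of 8 members were called between exercised and unexercised rats (background 0.0%, 724 probe sets at an unadjusted p under 0.05), and in vehicle soleus 0 of 8 (0.0%, 645 probe sets). Nqo1 was wholly lower on the exercised vehicle gastrocnemius arrays, at 1011 to 1147, than on the unexercised ones, at 1521 to 2260, as was so for 1.13% of all probe sets. Its log2 difference was -0.78 ± 0.34 (limma adjusted p = 1). Slow-fibre sums in these groups ran from 3653 to 379729 with exercise and from 109415 to 361930 without, and their part in this was not tested. The interaction of exercise with 1.0 mg/kg/day was called for 0 of 8 members in gastrocnemius (0.0%, 1375 probe sets at an unadjusted p under 0.05) and for 0 of 8 in soleus (0.0%, 705 probe sets). For Hmox1 the interaction in gastrocnemius was 1.28 on the log2 scale (95% interval -0.44 to 3.00). Over 24 alternatives it ranged from -0.07, without replicate 3 of the unexercised 1.0 mg/kg/day group, to 2.09, and it passed in 0 of them. For Gclm it was -0.58 (95% interval -1.29 to 0.13). The intervals of these interactions are wide and do not show that the response was alike in both exercise states.

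In soleus, 1.0 mg/kg/day left no member past the threshold. With exercise 0 of 8 were called on a background of 0.0%, with 1156 probe sets at an unadjusted p under 0.05, and without exercise 0 of 8 (0.0%, 593 probe sets). Hmox1 had 797.7, 411.6, 388.3 and 491.4 at 1.0 mg/kg/day with exercise, against 317.4, 299.1, 313.9 and 406.7 in vehicle. Only the third treated array was below the highest vehicle array, and the log2 difference was 0.58 ± 0.28 (95% interval -0.01 to 1.16, limma adjusted p = 0.908). Without exercise Hmox1 had 367.6, 563.7 and 318.0, against 349.8, 245.9, 572.9 and 291.4, with wide overlap. The macrophage sum on these soleus arrays was 13734 to 36032 at 1.0 mg/kg/day and 6984 to 16719 in vehicle with exercise, and 14363 to 16835 against 8232 to 27003 without. The array highest in Hmox1 with exercise, replicate 1, also had the highest macrophage sum, and the share of these cells in its level was not tested.

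Nqo1 in soleus lay below vehicle at 1.0 mg/kg/day on all arrays, in both exercise states. With exercise it had 4112, 3085, 1842 and 2053, against 4386, 4164, 4151 and 5689, and without exercise 4376, 3239 and 3577, against 5115, 4789, 4541 and 5763. No treated array reached the lowest vehicle array of its own exercise state, though in each state the brightest treated array came close to it. Groups wholly below vehicle were found for 1.67% of all probe sets with exercise and 1.7% without, and Nqo1 was the only member so in either. The log2 differences were -0.79 ± 0.21 (unadjusted p = 0.00208, limma adjusted p = 0.747) and -0.44 ± 0.23 (unadjusted p = 0.0744, limma adjusted p = 1), so neither passed. Gclc, Gclm, Txnrd1 and Srxn1 were between -0.40 and 0.08 in exercised and between -0.11 and 0.02 in unexercised soleus. Akr1b8 was at 0.66 ± 0.52 with exercise and 0.05 ± 0.56 without (limma adjusted p = 0.911 and 1).

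The log2 fold change at 1.0 mg/kg/day was lower in exercised soleus than in exercised gastrocnemius for 6 of 8 members by the test of the difference itself, on a background of 25.3% of probe sets called. The difference of the log2 fold changes, soleus minus gastrocnemius, was -3.68 ± 0.71 for Hmox1 (limma adjusted p = 0.000568), -3.43 ± 1.09 for Akr1b8 (adjusted p = 0.0188) and -1.70 ± 0.38 for Gclc (adjusted p = 0.00184). It was -0.92 ± 0.28 for Nfe2l2 (adjusted p = 0.0159), -1.39 ± 0.44 for Nqo1 (adjusted p = 0.0186), whose changes of -0.79 in soleus and 0.61 in gastrocnemius had opposite signs and were not called alone, and -1.87 ± 0.70 for Srxn1 (adjusted p = 0.0449). For Srxn1 it passed in only 11 of 24 alternatives, and for Nqo1 in 22 of 24. The other probe sets gave -1.65 for Gclc (adjusted p = 0.0677) and -1.61 for Srxn1 (adjusted p = 0.0782), which did not pass. Gclm (-0.25 ± 0.30) and Txnrd1 (-0.73 ± 0.32, adjusted p = 0.0939) did not pass, but the other Txnrd1 probe set did, at -1.81 (adjusted p = 0.0143). In unexercised rats 0 of 8 members passed on a background of 0.0092%, or 2 probe sets, with 3929 at an unadjusted p under 0.05. Without gastrocnemius replicate 3, the array that stood apart, this became 7 of 8 members, all but Srxn1, among 3558 probe sets called. Hmox1 was then at -4.11 (limma adjusted p = 5.4e-06). Each of these 7 members passed in only 1 of 22 alternatives. Without gastrocnemius replicate 1 at 1.0 mg/kg/day, 0 probe sets were called. About 4 µg of RNA was labelled from gastrocnemius and 3 µg from soleus, so muscle and input amount cannot be told apart.

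Without drug, the signal of several members was higher in soleus than in gastrocnemius. Here too, muscle and the amount of RNA labelled cannot be told apart. In exercised vehicle rats 4 of 8 members were higher in soleus and 0 lower (background 13.2%), and 5 of 8 lay wholly above, as did 11.4% of probe sets. In unexercised vehicle rats 2 of 8 were higher and 0 lower (7.02%), and 3 of 8 lay wholly above (7.75%). Nqo1 differed most: with exercise it had 4386, 4164, 4151 and 5689 in soleus, against 1084, 1147, 1063 and 1011 in gastrocnemius, a log2 difference of 2.07 ± 0.31 (limma adjusted p = 4.41e-05). Without exercise it had 5115, 4789, 4541 and 5763 against 1935, 2260, 1521 and 1785, at 1.43 ± 0.31 (limma adjusted p = 0.0045). Both Nqo1 calls held in all 16 alternatives. Nfe2l2 was higher in soleus in both states, at 0.65 ± 0.20 (adjusted p = 0.0269) with exercise and 0.70 ± 0.20 (adjusted p = 0.026) without. Gclc (0.90 ± 0.27, adjusted p = 0.0223) and Srxn1 (1.67 ± 0.49, adjusted p = 0.0199) passed with exercise, though the other probe set of each did not (0.25, adjusted p = 0.775 for Gclc; 0.78, adjusted p = 0.295 for Srxn1), and without exercise Gclc was at 0.63 (adjusted p = 0.158) and Srxn1 at 1.08 (adjusted p = 0.185); the difference between the states was not tested. Of 16 alternatives, Nfe2l2 passed in 10 with exercise and 11 without, Gclc in 10 and Srxn1 in 12 with exercise; averaging its probe sets put Gclc at 0.58 (adjusted p = 0.219). The number of members called with exercise was 1 to 3 when any one array was left out, and 1 without gastrocnemius vehicle replicate 4. Slow-fibre markers were higher in soleus for 7 of 8 genes with exercise and 1 of 8 without, and fast-fibre markers were lower for 6 of 9 and 5 of 9; the part of fibre type in the members' levels was not tested.

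The order of group means also differed between members. Hmox1 ranged from 3893 in exercised gastrocnemius at 1.0 mg/kg/day and 2914 in unexercised gastrocnemius at that dose, through 334 to 522 in the soleus groups, to 152 to 279 in the other gastrocnemius groups, and no neighbours in that order lay further apart than the larger of their SDs on the log2 scale. Nqo1 was ordered by muscle at its top, with 5052 and 4597 in the vehicle soleus groups, then 3731 in unexercised soleus at 1.0 mg/kg/day, and its lowest mean was 1076 in exercised vehicle gastrocnemius. The gap below exercised vehicle soleus was larger than the SDs of its neighbours, and the others in the order of Nqo1 were not. Nfe2l2 had its widest gap between 2771 in exercised vehicle soleus and 1960 in unexercised gastrocnemius at 0.5 mg/kg/day, with the 4 soleus groups and both 1.0 mg/kg/day gastrocnemius groups (3875 with exercise, 3091 without) above that gap.

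The wider antioxidant network in exercised gastrocnemius at 1.0 mg/kg/day moved in both directions. Of 95 listed genes 81 were tested, and 27 were higher and 21 lower, with a median of 0.23 on the log2 scale; over all probe sets 23.0% were higher and 20.4% lower, with a median of -0.01, and the counts of each role group below are to be set against these shares. Among the regulators of NRF2 0 of 7 were higher and 2 lower: Cul3, the ubiquitin ligase scaffold that works with KEAP1, at -1.10 ± 0.22 (mean signal 6190 against 13400, limma adjusted p = 0.000269), and the related factor Nfe2l1 at -0.99 ± 0.23. Among heme and iron genes 3 of 10 were higher and 3 lower. Cd163, the macrophage receptor for haemoglobin, was at 4.78 ± 0.66, Blvrb, a biliverdin reductase, at 2.13 ± 0.44, and the transferrin receptor Tfrc at -1.99 ± 0.49. Cd163 also stands in the macrophage marker list.

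Glutathione synthesis and recycling genes were higher in 6 of 11 cases and lower in 2. Gss, glutathione synthetase, was at 2.70 ± 0.53 (mean signal 679 against 92.1), the glutaredoxin Glrx at 2.10 ± 0.45, and Chac1, which degrades glutathione, at -2.51 ± 0.68. Of 12 glutathione transferases 2 were higher, the microsomal Mgst1 (2.92 ± 0.83) and Mgst2 (2.10 ± 0.50), and 2 lower, with Gstm2 at -1.13 ± 0.36. NADPH supply genes were higher in 4 of 5 cases, among them transketolase Tkt (3.66 ± 0.50, mean signal 4960 against 357) and Pgd of the pentose phosphate pathway (2.09 ± 0.33), and 1 was lower, the malic enzyme Me1 (-2.34 ± 0.47).

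Thioredoxin and peroxiredoxin genes were higher in 3 of 11 cases and lower in 5, with the endoplasmic reticulum peroxiredoxin Prdx4 at 1.83 ± 0.37, the sestrin Sesn2 at 1.52 ± 0.32 and Txnip, which binds thioredoxin, at -1.39 ± 0.26. Carbonyl and quinone detoxification genes were higher in 5 of 15 and lower in 5, with the aldehyde dehydrogenase Aldh1a1 at -3.35 ± 0.69. The carbonyl reductase Cbr3 was at 3.33 ± 0.80 (mean signal 486 against 43.9). The efflux pump Abcc3 was at 2.35 ± 0.75 (284 against 60.7). Cbr3 and Abcc3 were thus dim in vehicle. Of 4 superoxide and peroxide removal genes 1 was lower, the extracellular dismutase Sod3 (-1.16 ± 0.24). NADPH oxidase genes, which make superoxide in phagocytes, were higher in 3 of 4 cases: Cybb at 4.38 ± 0.53 (mean signal 13500 against 588), Cyba at 3.45 ± 0.41 and Ncf4 at 2.91 ± 0.57. Of 2 metallothionein genes Mt2A was higher, at 3.41 ± 0.59.

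**Figure D5:**
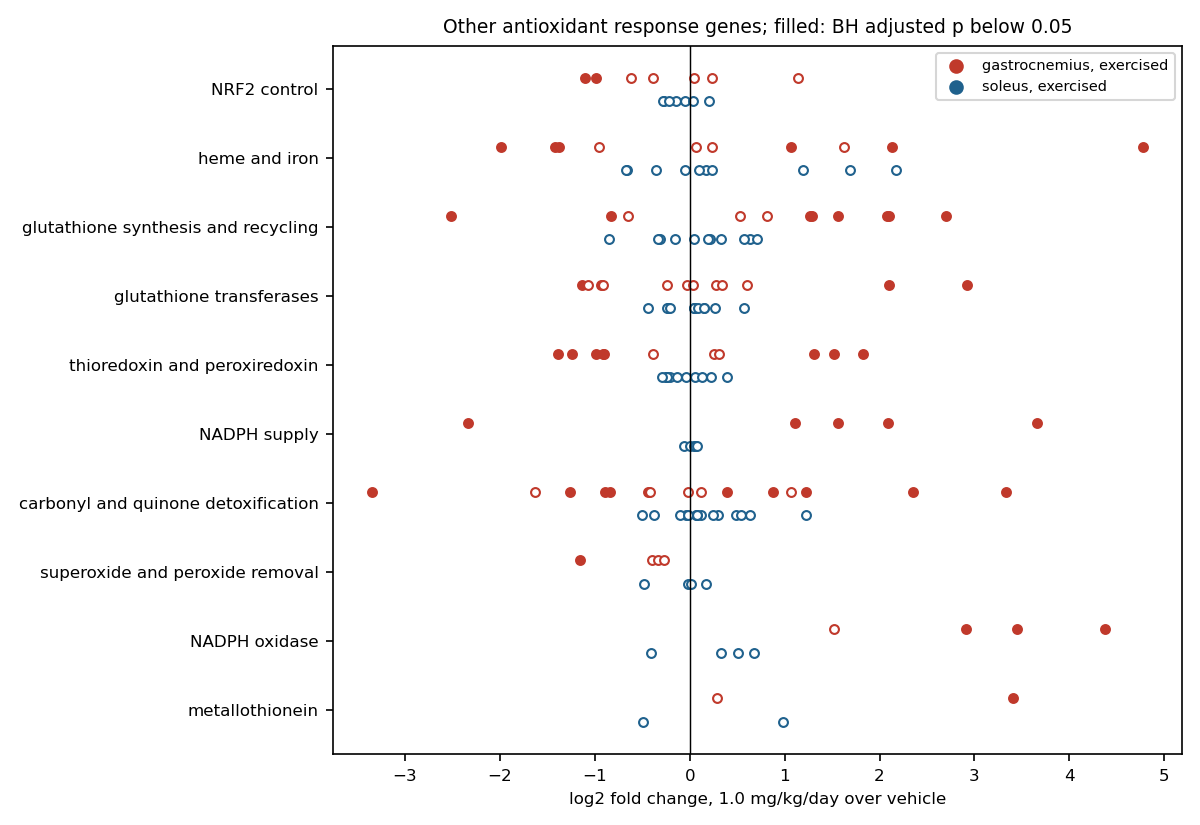
Log2 fold change at 1.0 mg/kg/day over vehicle for each tested gene of 10 role groups, in exercised gastrocnemius (upper row of each pair) and exercised soleus (lower row). Filled points passed the adjusted threshold: 27 higher and 21 lower in gastrocnemius and 0 in soleus.

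Without exercise 13 of the same 81 genes were higher and 3 lower in gastrocnemius at 1.0 mg/kg/day, where 5.7% of all probe sets were higher and 3.81% lower. Gss (2.49), Tkt (2.31), Cybb (2.45), Mt2A (3.17) and Cd163 (3.04) were among those higher, and Sod3 (-1.18) and Txnip (-0.92) among those lower. These calls share the array that stood apart. In soleus 0 of 81 were called in either exercise state, in limma fits that called 0 probe sets in all. Between the muscles, 20 of the 81 genes had a lower and 12 a higher log2 fold change in exercised soleus than in exercised gastrocnemius, where 13.7% of all probe sets were lower and 11.6% higher.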

How the data were processed

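The authors deposited 1 linear MAS5 intensity for each probe set of each array; the tool is named in the submitters' processing notes, and the sources used here do not give its version or scaling. No scan date was used. Of 31099 probe sets, 57 controls were left out. Probe sets were named by the platform annotation, using only the 20826 with 1 symbol. Values were analysed as log2(value + 12.4), the offset being the 10th percentile of all values. The test covered the 21729 probe sets, from 11684 genes, whose mean log2 value over all 45 arrays reached 6.03, the 30th percentile. Group means were fitted across all genes tested with limma (version 3.58.1, R version 4.3.3; lmFit, contrasts.fit, eBayes with trend), using the 30 gastrocnemius arrays, the 15 soleus arrays or all 45 for muscle comparisons, and adjusted by Benjamini-Hochberg within each of 18 comparisons. The code was tested on simulated data. No array pair was identical (highest correlation 0.966). The labels call the replicates biological. Array number limits the precision.

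The members and lists were chosen with earlier results of these data known. All members are named; of the 95 other pathway genes, at most 3 per role group with the largest change among those called in exercised gastrocnemius at 1.0 mg/kg/day; and for likeness, the 5 genes of highest correlation. Soleus arrays whose title does not mention exercise were taken as unexercised. Alternatives were the offset, the filter, quantile normalization, median centring, only the groups compared, the replicate number as a block, the mean over a gene's probe sets and leaving out each array.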

Additional observations from a re-analysis of the deposited data

Results flagged for a closer look

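Of 72 groups of 4 arrays examined over the 8 members, 5 held 1 array far from the others by Dixon's criterion, and chance flags about 1 in 20 groups. The gap to the nearest array, divided by the group's range, was 0.848 for Akr1b8 on unexercised vehicle gastrocnemius replicate 1, which was low at 20.6, and 0.874 for Gclm on exercised gastrocnemius replicate 3 at 0.1 mg/kg/day, which was high. For Srxn1 it was 0.834 on unexercised gastrocnemius replicate 2 at 0.1 mg/kg/day (low), 0.928 on unexercised gastrocnemius replicate 1 at 0.5 mg/kg/day (low) and 0.895 on exercised vehicle soleus replicate 2 (high, at 2033).

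The effect of 1.0 mg/kg/day differed between exercised soleus and exercised gastrocnemius by the interaction test for 6 members, on a background of 25.3% of probe sets called. Srxn1 passed in only 11 of 24 alternatives and Nqo1 in 22 of 24. The other probe sets of Gclc and Srxn1 did not pass. The difference in log2 fold change was -3.68 for Hmox1, -0.92 for Nfe2l2, -3.43 for Akr1b8, -1.39 for Nqo1, -1.70 for Gclc and -1.87 for Srxn1. For Nqo1 the estimate was 0.61 in gastrocnemius and -0.79 in soleus, neither called by itself.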

How the results depend on the processing

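Over the alternatives, 2460 single-member results kept their side of the threshold, 32 passed it newly and 76 no longer passed. Of those that passed in the main or the alternative setting, 0 changed direction. Changes of direction in results that passed in neither setting were not counted, and some did change. Counts of all probe sets called moved as follows. For 0.5 mg/kg/day with exercise (main 0) they were 2 with an offset of 1 and 1 with an offset of 64, and 2 without the 3 arrays of lowest actin ratio, a setting chosen after seeing the data. For 0.1 mg/kg/day with exercise (main 0) it was 1 with an offset of 1, 1 with only the groups compared and 1 without those 3 arrays. For the muscle interaction without exercise (main 2) it was 1 with no filter, 1 with quantile normalization, 1 with median centring and 0 with only the groups compared. With only the groups compared, unexercised 1.0 mg/kg/day gave 0 probe sets and 0 members against vehicle, and 0 and 0 against 0.5 mg/kg/day, also by limma. Without the 3 arrays of lowest actin ratio the counts were 4054 probe sets and 6 members against vehicle, and 4085 probe sets against 0.5 mg/kg/day. These arrays were from exercised soleus at 1.0 mg/kg/day, outside the gastrocnemius fit, and from exercised and unexercised gastrocnemius at 0.1 mg/kg/day. None belonged to the unexercised groups compared, so these counts moved only through the shared estimate of the spread. Averaging a gene's probe sets gave 2 members for exercised soleus against gastrocnemius.

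Leaving out 1 array gave these ranges. Unexercised 1.0 mg/kg/day had 2 to 5823 probe sets and 0 to 8 members against vehicle, and 0 to 5892 and 0 to 8 against 0.5 mg/kg/day. The muscle interaction without exercise had 0 to 3558 probe sets and 0 to 7 members. Soleus against gastrocnemius had 745 to 1320 probe sets and 1 to 2 members without exercise, and 1752 to 3255 and 1 to 3 with it. The 0.5 and 0.1 mg/kg/day comparisons in either exercise state had 0 to 1. The lowest and highest counts at 1.0 mg/kg/day against vehicle without exercise came from leaving out treated replicates 2 and 3. The lowest counts for soleus against gastrocnemius came without gastrocnemius vehicle replicate 3 (745, unexercised) and replicate 4 (1752, exercised).

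Median centring moved the median of all probe sets at 1.0 mg/kg/day with exercise to -0.28, and the split to 3696 higher and 6315 lower (4990 and 4434 as reported), without exercise to 987 and 1133 (1238 and 827). Against 0.5 mg/kg/day it was 3395 and 5646 (4682 and 3948) with exercise. For soleus against gastrocnemius it was 483 and 951 (709 and 817) without and 1069 and 1817 (1376 and 1485) with exercise, and for the muscle interaction with exercise 3444 and 2187 (2523 and 2968).

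Deviations of same-numbered arrays correlated between -0.293 and 0.342 over all comparisons of a pair of groups. Between the muscles in vehicle rats they correlated at 0.0348 to 0.0886 with exercise and -0.145 to 0.125 without. An array was most like its own number in 3 of 4 cases with exercise and 1 of 4 without. This does not settle whether both muscles came from the same rats, and the muscle comparisons treat the arrays as independent. With the replicate block, 2 probe sets passed at 0.5 mg/kg/day with exercise, and Txnrd1 passed at 1.0 mg/kg/day with exercise (adjusted p = 0.0484), while Gclm no longer passed against 0.5 mg/kg/day without exercise (0.77, adjusted p = 0.0696).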

Other observations

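The Srxn1 probe set left out by the filter was dim on every array and was not tested. Its signal was 4.6 to 35.8 in exercised gastrocnemius at 1.0 mg/kg/day, against 7.6 to 15.8 in exercised vehicle gastrocnemius, so these groups overlapped.

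The 3 tested erythroid markers summed to 6206 to 15708 in exercised gastrocnemius at 1.0 mg/kg/day, against 7126 to 13595 in vehicle, and 0 of 3 were called by limma there. The highest gastrocnemius sum, 23446, was on unexercised replicate 3 at 0.1 mg/kg/day, against 6482 to 10758 in unexercised vehicle.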
